A study of Mus musculus with 9 samples.

Results

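Neutrophils are the short-lived phagocytes that leave the blood first for injured tissue, and 8 genes that mark them in the mouse were followed here through liver RNA. The genes, S100a8, S100a9, Retnlg, Csf3r, Cxcr2, Mmp8, Mmp9 and Ly6g, were taken by name from a deposited list of 36119 genes, and each was found there once. RNA was sequenced from the livers of 9 wild-type male C57BL/6J mice aged 6 to 8 weeks, in 3 groups of 3. The Cont mice were gavaged with corn oil, and the OA mice with oleanolic acid, a plant triterpenoid that causes cholestatic liver injury at high dose, for 4 days. Titles give the OA dose as 295.5 mg/kg, and the treatment protocol as 295.92 mg/kg. The ZnPP+OA mice also had protoporphyrin IX zinc (ZnPP), an inhibitor of heme oxygenase-1, at 20 mg/kg into the peritoneum 2 h before OA, and the protocol gives saline in its place for mice without it. No group had ZnPP alone, so that what ZnPP does by itself cannot be told apart from what it does to the response to OA. Each mouse gave 1 library of poly(A) RNA from whole liver, named by group and replicate number.

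A neutrophil is made in the bone marrow, where it fills its granules in a fixed order, and it is released when granulocyte colony-stimulating factor binds its receptor, which Csf3r encodes. Cxcr2 encodes the receptor for the CXC chemokines that draw it out of the vessels. S100a8 and S100a9 encode the subunits of calprotectin, a calcium- and zinc-binding protein that fills much of the cytosol and that monocytes also make. Retnlg encodes a resistin-like protein of mouse myeloid cells. Mmp8 encodes neutrophil collagenase and Mmp9 gelatinase B, proteases stored in the later granules, and macrophages also make the latter. Ly6g encodes the surface antigen by which mouse neutrophils are sorted. In injured liver such cells gather in the sinusoids and around dying hepatocytes.

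The promoter windows of 4 of the genes are shown because the results turn on them. Retnlg carried the only call, Mmp8 had the largest fitted difference between ZnPP+OA and OA, and S100a8 and S100a9 are neighbours on chromosome 3 whose levels went together most closely. The sequences are from RefSeq on GRCm38.p6 and hold the 250 bases before the annotated start, 5′ to 3′ along the strand of the gene. The table held a window for 7 of the 8 genes, all but Mmp9. The capitals mark, on either strand, the C/EBP letters TTNNGNAA, the PU.1 letters GAGGAAG, the AP-1 letters TGANTCA and the TATA box letters TATAAA, and the last motif was added after the sequences were seen. Retnlg is from chr16:48872358-48872607 (plus strand), S100a8 from chr3:90668821-90669070 (plus strand), S100a9 from chr3:90695722-90695971 (minus strand) and Mmp8 from chr9:7558179-7558428 (plus strand).
Retnlg: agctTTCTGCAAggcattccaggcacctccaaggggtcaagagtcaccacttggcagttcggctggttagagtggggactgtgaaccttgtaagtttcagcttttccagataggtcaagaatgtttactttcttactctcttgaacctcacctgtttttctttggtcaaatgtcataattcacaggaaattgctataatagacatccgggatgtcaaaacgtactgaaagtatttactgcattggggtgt
S100a8: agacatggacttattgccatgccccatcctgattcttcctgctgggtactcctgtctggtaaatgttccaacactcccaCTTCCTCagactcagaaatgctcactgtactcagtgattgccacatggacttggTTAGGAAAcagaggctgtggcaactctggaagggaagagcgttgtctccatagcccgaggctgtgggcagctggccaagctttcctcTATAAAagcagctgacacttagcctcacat
S100a9: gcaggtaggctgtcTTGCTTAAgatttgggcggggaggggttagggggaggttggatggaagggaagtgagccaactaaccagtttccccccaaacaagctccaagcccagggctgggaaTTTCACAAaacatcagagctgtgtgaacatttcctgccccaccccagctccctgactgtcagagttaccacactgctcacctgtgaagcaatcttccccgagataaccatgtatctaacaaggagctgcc
Mmp8: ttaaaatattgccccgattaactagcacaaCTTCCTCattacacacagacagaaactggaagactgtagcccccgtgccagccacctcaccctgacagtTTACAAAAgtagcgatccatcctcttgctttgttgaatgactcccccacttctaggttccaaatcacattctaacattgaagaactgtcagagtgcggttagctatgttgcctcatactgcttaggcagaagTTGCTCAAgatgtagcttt

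C/EBP and PU.1 are transcription factors of the granulocyte line. The C/EBP letters stood in the windows of 5 of the 7 genes, against 36.8% of 32851 RefSeq promoter windows of this length, and the PU.1 letters in 4 of 7, against 10.6%. The AP-1 letters stood in none of the 7, against 6.75% of all windows. The TATA box letters stood in 2 of 7, against 12.4%, and in S100a8 they began 30 bases before the start. The matches are a description of letters, and no binding was measured.

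In GENCODE M21 on GRCm38, S100a8 spans chr3:90668978-90670035 on the plus strand and S100a9 spans chr3:90692632-90695721 on the minus strand, with 22596 bases between them. Retnlg lies at chr16:48872621-48874496, Csf3r at chr4:126024550-126044440, Cxcr2 at chr1:74153989-74161246, Mmp8 at chr9:7558456-7568485 and Mmp9 at chr2:164940780-164955850, all on the plus strand. Ly6g lies at chr15:75155240-75159126 on the plus strand, in a cluster of closely related Ly6 genes, so that reads shared with its relatives could be counted for it or lost to it.

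Libraries held 32639438 to 85060187 counts, of which mitochondrial genes took 13.7% to 74.7%, and the share was lowest in the OA libraries. Levels are therefore given as CPM (counts divided by library size, as edgeR scales them) on sizes scaled by TMM, with factors of 0.265 to 2.53. Over all 18895 tested genes, the median on this scale was 0.09 (log2) when OA was compared with Cont and −0.07 when ZnPP+OA was compared with OA. The design has 3 mice a group, and an exact permutation test of 3 against 3 cannot give a p below 0.1. The labels say nothing of litters or cages, and p-values measure only the spread between these 9 samples.

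The neutrophil genes were scarce in Cont livers and reached their highest levels in OA livers, with Ly6g as the exception. Summed over the 8 genes, the level was 4.32, 18.0 and 8.69 CPM in Cont 1 to Cont 3, 21.3, 70.9 and 28.5 CPM in OA 1 to OA 3, and 15.3, 12.1 and 17.4 CPM in ZnPP+OA 1 to ZnPP+OA 3. The sum was higher in all 3 OA livers than in any other liver, and OA 2 stood far above the rest. For 7 of the 8 genes OA 2 was the highest of the 9 livers, and for Ly6g it was ZnPP+OA 3. In whole liver, fewer neutrophils and less of each RNA per neutrophil cannot be told apart.

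**Figure D1:**
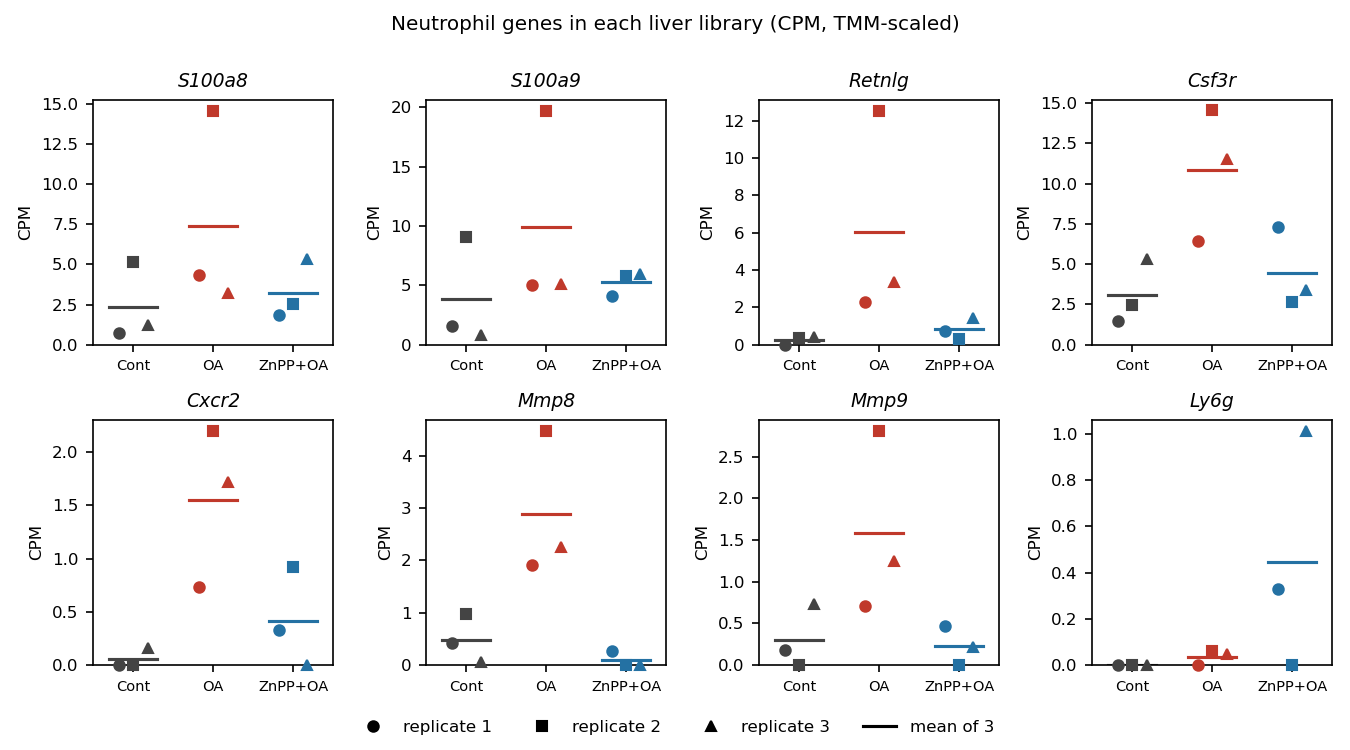
CPM (TMM-scaled, y axis) of each of the 8 neutrophil genes in the 3 Cont, 3 OA and 3 ZnPP+OA livers; symbols give the replicate number and bars the mean of 3. OA 2 is the highest liver for every gene except Ly6g, which is highest in ZnPP+OA 3 at 1.01 CPM.

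Retnlg was the only gene of the 8 that passed the test. It was at 0, 0.366 and 0.399 CPM in the Cont livers, 2.27, 12.5 and 3.37 CPM in the OA livers, and 0.709, 0.282 and 1.45 CPM in the ZnPP+OA livers. The lowest OA liver lay above every Cont and every ZnPP+OA liver, while Cont and ZnPP+OA livers overlapped. The counts behind these values were 0, 6 and 28 in Cont, 247, 1829 and 725 in OA, and 30, 8 and 53 in ZnPP+OA. Retnlg rose 23.6-fold in OA against Cont (log2 fold change 4.56 ± 1.11 SE, n = 3 a group, edgeR adjusted p = 0.0334), when 2.4% of all tested genes were called higher. Its log2 fold change was −2.88 ± 1.01 (edgeR adjusted p = 0.145) in ZnPP+OA against OA. The call for OA against Cont was lost without Cont 2, OA 2, OA 3 or ZnPP+OA 1 (edgeR adjusted p of 0.0536 to 0.268), and without OA 2 the log2 fold change was 3.49. Calls were lost over all genes too. In these fits, in this order, 271, 100, 119 and 307 genes were called higher in OA, against 454 with all livers. The Retnlg call was also lost when only the 6 compared livers were fitted (adjusted p = 0.0631) and with limma voom and library weights (adjusted p = 0.213).

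The receptor Csf3r was the member with the most counts, and it was detected in every liver. Its level was 1.45, 2.44 and 5.32 CPM in Cont, 6.40, 14.6 and 11.5 CPM in OA, and 7.28, 2.65 and 3.36 CPM in ZnPP+OA. All OA livers were above all Cont livers, but ZnPP+OA 1 lay above OA 1. The log2 fold change was 1.80 ± 0.55 in OA against Cont (edgeR adjusted p = 0.0794) and −1.29 ± 0.54 in ZnPP+OA against OA (adjusted p = 0.229). Without Cont 3, the highest Cont liver, the difference between OA and Cont passed the test (log2 fold change 2.45, edgeR adjusted p = 0.0315), and with DESeq2 it passed with all livers (adjusted p = 0.0316).

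Cxcr2, the chemokine receptor, had no count in Cont 1 and Cont 2 and 11 counts in Cont 3. In OA 1 to OA 3 it had 80, 321 and 370 counts, or 0.735, 2.19 and 1.72 CPM. In ZnPP+OA 1 to ZnPP+OA 3 it had 14, 26 and 0 counts, or 0.331, 0.918 and 0 CPM. The OA livers did not overlap with Cont, whereas ZnPP+OA 2 was above OA 1. The log2 fold change in OA against Cont was 4.58 ± 1.72, as large as that of Retnlg but with a wider error, and it did not pass (edgeR adjusted p = 0.141). DESeq2 called it (adjusted p = 0.0329). For ZnPP+OA against OA the log2 fold change was −1.90 ± 1.51 (edgeR adjusted p = 0.579).

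S100a8 and S100a9 had the highest mean levels per length of transcript in OA livers, and their groups overlapped. S100a8 was at 0.726, 5.13 and 1.23 CPM in Cont, 4.31, 14.6 and 3.24 CPM in OA, and 1.87, 2.54 and 5.33 CPM in ZnPP+OA. S100a9 was at 1.54, 9.09 and 0.799 CPM in Cont, 5.01, 19.7 and 5.13 CPM in OA, and 4.09, 5.75 and 5.99 CPM in ZnPP+OA. For both genes OA 2 was far above the other 8 livers, and Cont 2 was above OA 1 and OA 3. Cont 2 had the highest mitochondrial share (74.7%) and the smallest TMM factor (0.265) of the 9 libraries, and the part of either in its high values was not tested.

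The log2 fold change of S100a8 in OA against Cont was 1.68 ± 0.77 (edgeR adjusted p = 0.225), and that of S100a9 was 1.42 ± 0.78 (adjusted p = 0.318). Without Cont 2 the values were 2.93 for S100a8 (adjusted p = 0.0694) and 3.14 for S100a9, which then passed (adjusted p = 0.0366). Without OA 2 they were 0.73 and 0.47. Between ZnPP+OA and OA the log2 fold changes were −1.18 ± 0.75 for S100a8 (edgeR adjusted p = 0.460) and −0.92 ± 0.77 for S100a9 (adjusted p = 0.606), and without OA 2 the value of S100a9 was 0.032. Neither gene passed in the TMM-scaled, filtered edgeR fit of all 9 livers. The edgeR fit with no filter on low counts called both higher in OA against Cont (adjusted p = 0.0171 for S100a8 and 0.0201 for S100a9), as did library totals alone (adjusted p = 0.00324 and 0.00239).

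Mmp8, the collagenase, was at or near 0 in the ZnPP+OA livers. Its level was 0.423, 0.976 and 0.0571 CPM in Cont, 1.91, 4.46 and 2.26 CPM in OA, and 0.260, 0 and 0 CPM in ZnPP+OA. The counts were 14, 16 and 4 in Cont, 208, 653 and 486 in OA, and 11, 0 and 0 in ZnPP+OA. OA livers overlapped with neither of the other groups. The log2 fold change in ZnPP+OA against OA was −4.95 ± 1.47, the largest among the 7 tested genes, and it did not pass in edgeR (adjusted p = 0.0947). DESeq2 called it lower (log2 fold change −4.89, adjusted p = 0.00373), as did voom with library weights (−5.78, adjusted p = 0.0157) and the edgeR fit of only the 6 compared livers (−4.87, adjusted p = 0.0306). Without ZnPP+OA 1, the only ZnPP+OA liver with counts, edgeR gave −10.89 (adjusted p = 0.0483), a value that depends on the prior count. In OA against Cont the log2 fold change was 2.62 ± 1.31 (edgeR adjusted p = 0.264).

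Mmp9, the gelatinase, was at 0.181, 0 and 0.727 CPM in Cont, 0.708, 2.80 and 1.25 CPM in OA, and 0.473, 0 and 0.219 CPM in ZnPP+OA. Cont 3 was just above OA 1, while all ZnPP+OA livers were below all OA livers. The log2 fold changes were 2.31 ± 1.45 in OA against Cont (edgeR adjusted p = 0.386) and −2.75 ± 1.49 in ZnPP+OA against OA (adjusted p = 0.363), and neither passed.

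Ly6g, the sorting antigen, did not follow the others. It had no count in any Cont liver, 0, 9 and 10 counts in OA 1 to OA 3 and 14, 0 and 37 counts in ZnPP+OA 1 to ZnPP+OA 3. Its highest level, 1.01 CPM in ZnPP+OA 3, compares with 0.0615 CPM in OA 2, the liver with the most of the other 7 genes. It was the only member left out of the test, since 2 livers reached the count that the filter asks of 3. Its level pooled over a group (summed counts over summed library sizes) was 0.476 CPM in ZnPP+OA and 0.0404 CPM in OA. Against a floor of 3 counts over the Cont group, or 0.0251 CPM, these were 19.0-fold and 1.61-fold higher. The floor allows for counting error in Cont only. Counting error in the 51 counts of ZnPP+OA and the 19 of OA, and the spread between mice, are not covered. Neither ratio is therefore a lower bound. The exact permutation test of ZnPP+OA against OA gave p = 0.4 (two-sided, 3 against 3). The counting tool and its treatment of shared reads are not given in the sources used here.

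Over the 8 genes, the OA livers were above all Cont livers for 4 (Retnlg, Csf3r, Cxcr2 and Mmp8), when 18.5% of all tested genes were higher in this way, and 1 of the 7 tested was called (2.4% of all genes were called higher). An unadjusted p under 0.05 was found for 4 of the 7, against 21.9% of all genes. DESeq2 called 3, Retnlg, Csf3r and Cxcr2, with 4.36% of all genes called higher. Retnlg, Csf3r, Cxcr2 and Mmp8 each had the smallest p that the exact permutation test allows (p = 0.1, two-sided). The ZnPP+OA livers were below all OA livers for 3 (Retnlg, Mmp8 and Mmp9), against 19.2% of all tested genes. None of the 7 was called in ZnPP+OA against OA by edgeR, with 1.26% of all genes called lower, and 3 had an unadjusted p under 0.05, against 18.1% of all genes. DESeq2 called 2 of them, Mmp8 and Retnlg, with 3.32% of all genes called lower. Voom with library weights also called 2 (10.3% of all genes), as did the fit of the 6 compared livers (4.11%). In ZnPP+OA against Cont no gene of the 7 and none of the 18895 was called by edgeR (0.0% of all genes), and none of the 7 had an unadjusted p under 0.05, as 8.16% of all genes had, or was called by DESeq2. The log2 fold changes there ran from −2.33 for Mmp8 to 2.68 for Cxcr2, with edgeR adjusted p of 0.688 to 0.956. The comparisons with OA share the OA livers, so that a high OA 2 moves both.

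**Figure D2:**
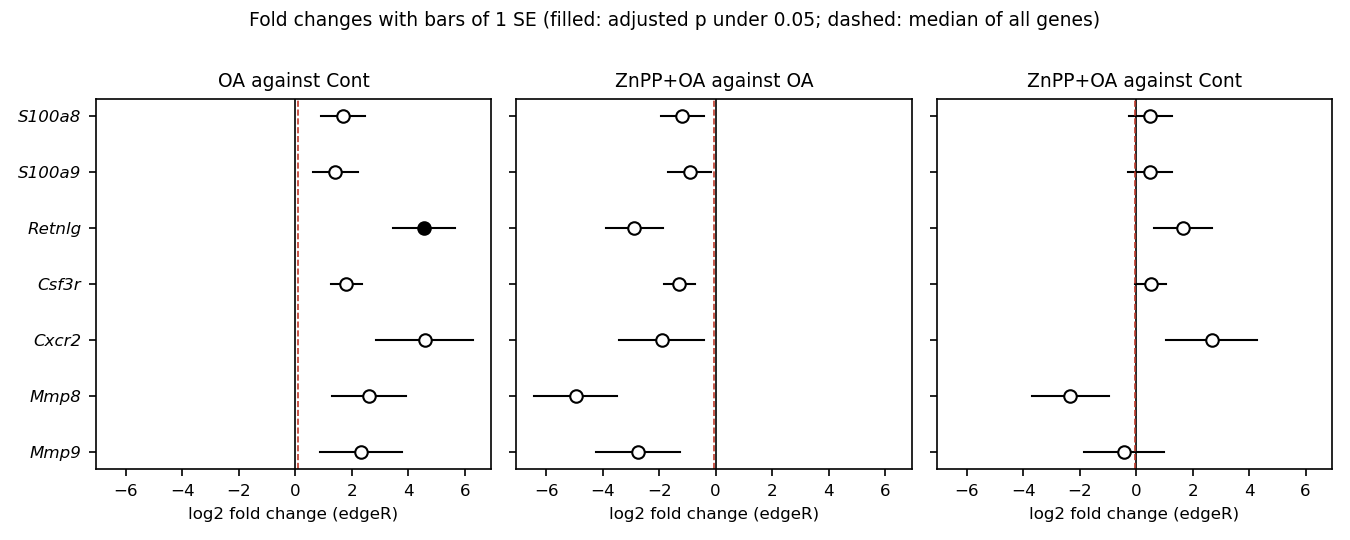
log2 fold changes (x axis, edgeR) of the 7 tested neutrophil genes in the 3 comparisons, with bars of 1 SE; filled points have an adjusted p under 0.05, the dashed line is the median of all genes tested. Retnlg in OA against Cont, at 4.56, is the only filled point.

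The number of genes called changed with the scaling of the libraries. On library totals alone, 6 of the 7 were called higher in OA against Cont (15.0% of all genes were) and all 7 lower in ZnPP+OA against OA (33.4% of all genes were). The median of all genes then stood at 1.48 and −1.85, so that the genes are to be read against that shift. With no filter on low counts, 5 were called higher in OA (3.21% of all genes) and 2 lower in ZnPP+OA (2.36%). On library totals the log2 fold change of S100a9 was 3.81 in OA against Cont and −2.76 in ZnPP+OA against OA. By FPKM, which the authors scaled by length and depth, OA livers were above all Cont livers for 7 of the 8 genes, against 52.4% of all tested genes, and ZnPP+OA livers were below all OA livers for 7, against 70.8%. Limma on log2(FPKM + 1) tested genes with an FPKM of at least 1 in at least 3 livers, which left out Cxcr2 and Mmp9. Mmp8 met this filter through the OA livers alone (1.33 to 4.08 FPKM, and at most 0.156 in the others). Its calls in this fit are therefore no support. All 5 members left were called higher in OA, with 68.7% of all genes, and lower in ZnPP+OA, with 76.3%. The direction of each of the 7 genes in both comparisons was the same under TMM, DESeq2 size factors, mitochondrial genes left out and totals alone.

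**Figure D3:**
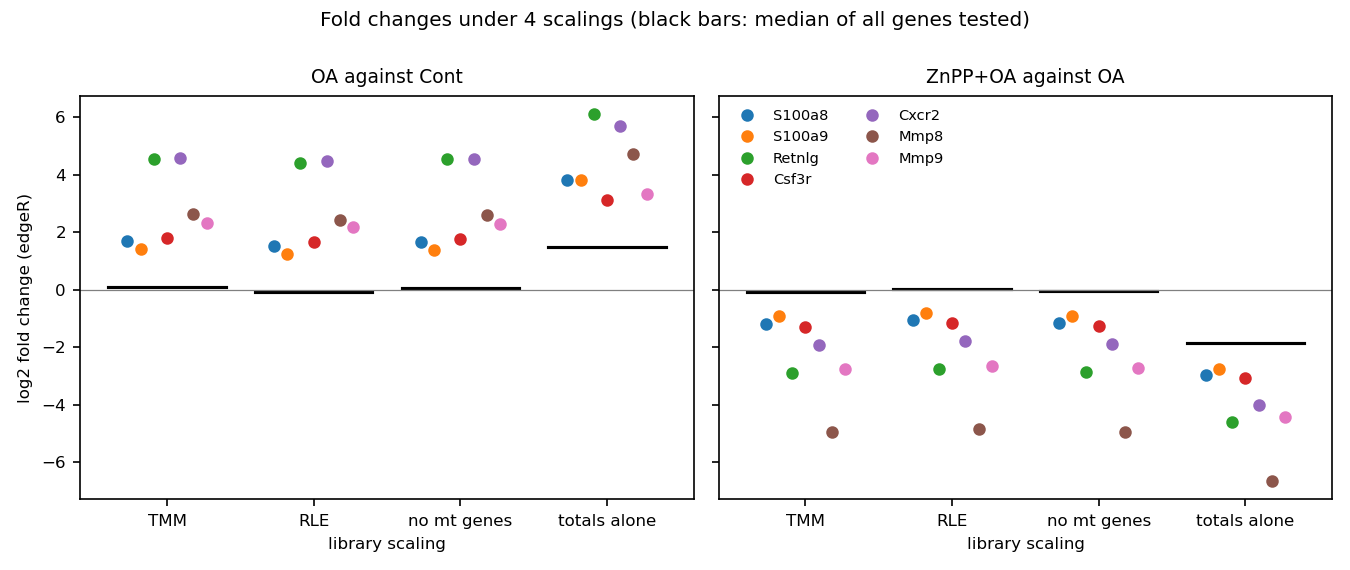
log2 fold changes (y axis, edgeR) of the 7 tested genes under 4 library scalings (x axis), in OA over Cont (left) and in ZnPP+OA over OA (right); black bars are the median of all genes tested, which moves to 1.48 and −1.85 on library totals alone.

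Per length of transcript, S100a9 had the highest mean in every group and S100a8 the next. Mean FPKM in OA was 41.1 ± 37.1 (SD, n = 3) for S100a9, 22.7 ± 20.6 for S100a8, 22.3 ± 21.5 for Retnlg, 6.51 ± 3.11 for Csf3r, 2.54 ± 1.40 for Mmp8, 1.11 ± 0.624 for Cxcr2, 0.976 ± 0.721 for Mmp9 and 0.0778 ± 0.0683 for Ly6g. The ranges of mean ± SD of neighbours in this order overlapped from S100a9 down to Mmp9, and those of Mmp9 and Ly6g did not. S100a9 was the highest member in each OA liver, but Retnlg exceeded S100a8 in OA 2 (46.8 and 46.6 FPKM) and OA 3 (13.5 and 11.1 FPKM). In ZnPP+OA, S100a9 (6.13 ± 1.73 FPKM) and S100a8 (2.94 ± 2.13 FPKM) led with overlapping ranges, while Mmp8 was last at 0.0235 ± 0.0407 FPKM. In Cont, S100a9 was at 2.96 ± 1.28 FPKM, S100a8 at 1.59 ± 0.580 FPKM and every other member under 1 FPKM.

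Ratios of counts within a liver do not depend on how libraries are scaled. S100a8 to S100a9 was 0.471, 0.564 and 1.54 in Cont, 0.861, 0.739 and 0.632 in OA, and 0.457, 0.442 and 0.890 in ZnPP+OA, with overlap between all groups. Per length, S100a9 exceeded S100a8 in each liver except Cont 3, where the FPKM ratio was 1.14. Mmp8 to S100a9 was 0.275, 0.107 and 0.0714 in Cont, 0.382, 0.226 and 0.440 in OA, and 0.0636, 0 and 0 in ZnPP+OA. This ratio was lower in every ZnPP+OA liver than in any OA or Cont liver (exact permutation p = 0.1 for each, the smallest possible).

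Members were also set against Adgre1, which encodes the macrophage antigen F4/80, in the same liver. Retnlg to Adgre1 was 0, 0.115 and 0.122 in Cont, 0.460, 1.46 and 0.359 in OA, and 0.207, 0.0635 and 0.203 in ZnPP+OA, so that OA livers were above both other groups (exact p = 0.1 for each). Cxcr2 to Adgre1 was 0, 0 and 0.0478 in Cont, 0.149, 0.255 and 0.183 in OA, and 0.0966, 0.206 and 0 in ZnPP+OA, so that OA did not overlap with Cont but did with ZnPP+OA. S100a9 to Adgre1 was 0.773, 2.87 and 0.243 in Cont and 1.01, 2.29 and 0.547 in OA, and the groups overlapped. Set against this macrophage gene, the OA and Cont livers overlapped for 5 of the 7 tested members (S100a8, S100a9, Csf3r, Mmp8 and Mmp9), and did not for Retnlg and Cxcr2. The ZnPP+OA livers were below all OA livers for Retnlg and Mmp8 and overlapped with them for the other 5. How many of all genes separate the groups when set against Adgre1 was not computed. The split between members is therefore a description and has no background to be read against. Of the 30 ratio comparisons made, none had an adjusted p below 0.5, and the ratios to Adgre1 other than that of S100a9 were added after the data were seen.

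**Figure D4:**
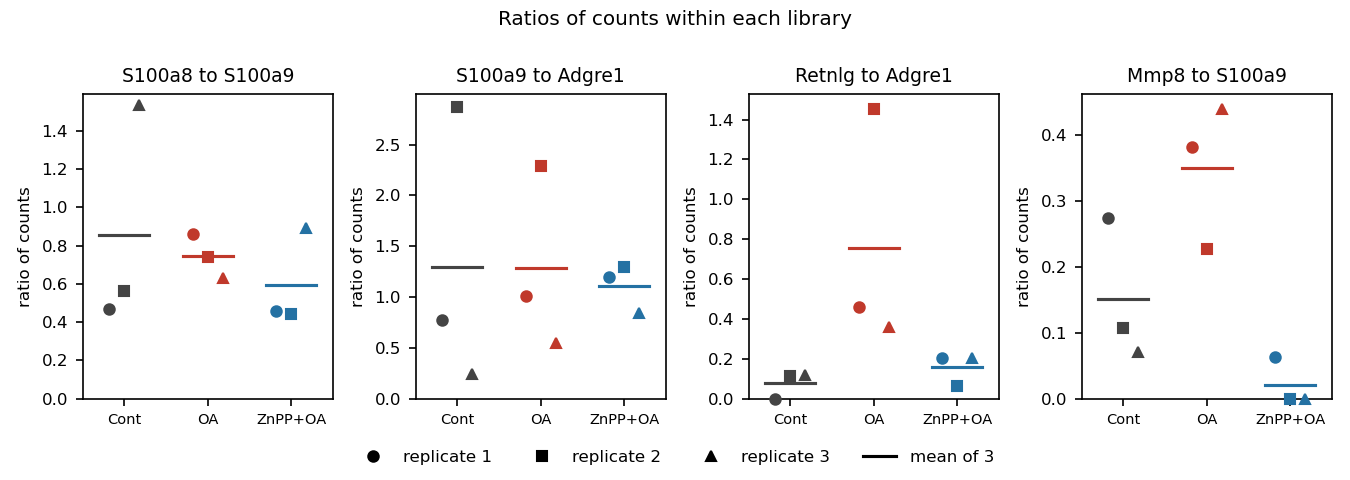
Ratios of counts within each liver (y axis, linear) for S100a8 to S100a9, S100a9 to Adgre1, Retnlg to Adgre1 and Mmp8 to S100a9; symbols give the replicate number and bars the mean of 3. The 3 OA livers lie above the others for Retnlg to Adgre1, and 2 of 3 ZnPP+OA livers are at 0 for Mmp8 to S100a9.

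Across the 9 livers, the log2 CPM of the 7 tested genes correlated with r of −0.00 (S100a9 with Mmp9) to 0.90 (S100a8 with S100a9), with a median of 0.51 over 21 pairs. These are descriptions over livers of 3 groups that share the group difference and, in each library, the scaling. Over the 6 livers given OA, Csf3r with Mmp8 (r = 0.93) and Csf3r with Mmp9 (r = 0.93) lay above S100a8 with S100a9 (r = 0.91). The protein-coding genes whose log2 CPM went most closely with the mean of the 7 were Fgr, a Src-family kinase of myeloid cells (r = 0.99), Actb, the cytoskeletal actin (r = 0.99), and E2f4, a cell cycle repressor (r = 0.98), out of 11732 genes averaging 1 CPM or more over the livers. Fgr was at 1.84 ± 0.495 CPM (SD, n = 3) in Cont, 7.14 ± 3.32 CPM in OA and 3.00 ± 0.933 CPM in ZnPP+OA. The other 7 of the 10 closest, Bnip2, Plscr1, Cd2ap, Btg1, Slpi, Bmper and Cndp2, had r of 0.96 to 0.97. Slpi, an inhibitor of neutrophil elastase, was at 11.9 ± 6.60 CPM in Cont, 86.7 ± 51.9 CPM in OA and 10.7 ± 3.82 CPM in ZnPP+OA.

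Other genes of the neutrophil were read from lists of its granules, surface and regulators. The primary granules are filled first, in the marrow, and their genes were at low levels. The list, which holds Prtn3, the proteinase 3 gene, summed to 0 to 5.06 CPM in Cont, 1.33 to 3.08 CPM in OA and 0.733 to 1.31 CPM in ZnPP+OA. The highest OA sum was above the highest OA level of Prtn3, so that part of it came from other genes of the list. Mpo, the myeloperoxidase gene, had no count in Cont, 16, 6 and 12 counts in OA and 14, 0 and 0 counts in ZnPP+OA. Ctsg, which encodes cathepsin G, had no count in any liver. Of the 6 genes of that list in the data, only Prtn3 was tested. It was at 0, 5.06 and 0.941 CPM in Cont and 2.08, 2.38 and 1.28 CPM in OA, with overlap, and its log2 fold change in OA against Cont was −0.04 ± 1.19 (edgeR adjusted p = 0.989).

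The later granules gave more. Over all genes, 2.4% were called higher and 2.8% lower in OA against Cont, and 1.6% higher and 1.26% lower in ZnPP+OA against OA. Of 11 tested secondary and tertiary granule genes, 5 were called higher in OA against Cont and none lower, with a median log2 fold change of 1.84. Lcn2, which encodes the iron carrier lipocalin 2, had the smallest p. Cyba and Cybb, the membrane subunits of the phagocyte oxidase, rose by 2.47 ± 0.45 and 2.40 ± 0.46 on the log2 scale (edgeR adjusted p = 0.00841 and 0.0112), and Hp and Orm1, which encode haptoglobin and orosomucoid, by 1.84 ± 0.47 and 1.74 ± 0.38 (adjusted p = 0.0397 and 0.0211). Hepatocytes also make lipocalin 2, haptoglobin and orosomucoid, and macrophages the oxidase subunits. Cyba fell in ZnPP+OA against OA by 2.17 ± 0.44 (edgeR adjusted p = 0.0217) and Lcn2 fell 4.59-fold (adjusted p = 0.0301), with 2 of 11 called lower and a median of −0.93. Chil3, a chitinase-like gene of neutrophils and macrophages, did not pass in either comparison (log2 fold change 1.76 ± 0.66, edgeR adjusted p = 0.144, and −2.12 ± 0.67, adjusted p = 0.115).

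Granule genes that hepatocytes and macrophages are not known for were scarce, and those named next were chosen after their values were seen. Cd177, a surface protein of neutrophil granules, had no count in Cont, 25, 123 and 39 counts in OA and 0, 9 and 16 counts in ZnPP+OA. Ngp, neutrophilic granule protein, had no count in Cont, 7, 99 and 17 counts in OA and 0, 23 and 8 counts in ZnPP+OA. Ltf, which encodes lactoferrin, had its highest level in a Cont liver, with 5, 25 and 0 counts in Cont and 0, 32 and 14 in OA, or 1.53 CPM in Cont 2 and 0.219 CPM in OA 2. Camp, which encodes cathelicidin, was found in Cont 2 alone, at 30 counts.

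Of 28 tested genes of the surface and cytosol of mature neutrophils, 4 were called higher in OA against Cont and none lower, with a median of 2.33. Itgam, which encodes the integrin CD11b, rose from 1.08 ± 0.565 CPM (SD, n = 3) in Cont to 12.5 ± 4.86 CPM in OA and was at 0.738 ± 0.597 CPM in ZnPP+OA. Fcgr4 and Fcgr3, which encode receptors for IgG, rose by 2.40 ± 0.40 and 1.73 ± 0.33 on the log2 scale (edgeR adjusted p = 0.00566 and 0.0119), and Slfn4, a Schlafen gene of myeloid cells, by 3.24 ± 0.87 (adjusted p = 0.0490). With ZnPP before OA, 4 of the 28 were called lower and none higher. These were Itgam (log2 fold change −4.06 ± 0.66, edgeR adjusted p = 0.00963), Fcgr4 (−2.25 ± 0.40, adjusted p = 0.0137), the decoy interleukin-1 receptor Il1r2 (−7.05 ± 1.29, adjusted p = 0.0155) and the formyl peptide receptor Fpr2 (−3.17 ± 0.60, adjusted p = 0.0168). Il1r2 had 305, 1761 and 697 counts in OA and 5, 0 and 0 counts in ZnPP+OA, a pattern like that of Mmp8. Monocytes and macrophages also express Itgam, Fpr2 and the IgG receptors.

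Among the transcription factors of the granulocyte line, Spi1, which encodes PU.1, rose by 1.80 ± 0.47 on the log2 scale in OA against Cont (edgeR adjusted p = 0.0429), and it was the only call among 8 tested. The part of cells other than granulocytes in the values of these genes was not tested. Cebpd and Cebpb, C/EBP genes that inflammation induces, had log2 fold changes of 1.05 ± 0.35 (adjusted p = 0.102) and 1.32 ± 0.62 (adjusted p = 0.233). Cebpe, the C/EBP gene of late granulocyte maturation, had log2 fold changes of the opposite sign, −1.42 ± 0.55 in OA against Cont (edgeR adjusted p = 0.149) and 1.61 ± 0.55 in ZnPP+OA against OA (adjusted p = 0.138). The fitted value was below 0 for 3 of the 8 in OA against Cont, and the median was 0.24. None of the 8 was called in ZnPP+OA against OA, and the median there was −0.60. Runx1 had −1.42 ± 0.67 there (adjusted p = 0.286).

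The signals that call neutrophils in were measured in the same livers. Cxcl1, a ligand of CXCR2, was at 6.29 ± 5.00 CPM (SD, n = 3) in Cont, 33.4 ± 7.52 CPM in OA and 3.94 ± 1.25 CPM in ZnPP+OA. It rose in OA against Cont (log2 fold change 2.43 ± 0.50, edgeR adjusted p = 0.0166) and fell in ZnPP+OA against OA (−3.08 ± 0.52, adjusted p = 0.0110). Alox5ap, needed for leukotriene synthesis, also rose (2.18 ± 0.39, adjusted p = 0.00791), and Ppbp, a platelet CXC chemokine, was lower in OA (−3.29 ± 0.74, adjusted p = 0.0233). These were 2 calls higher and 1 lower of 15 tested, and in ZnPP+OA against OA Cxcl1 was the only call. Cxcl2, another CXCR2 ligand, did not pass (0.73 ± 1.13, adjusted p = 0.764). The CXC chemokine genes Cxcl5 and Cxcl3 did not pass in OA against Cont either (0.51 ± 0.76 and −1.91 ± 0.93, edgeR adjusted p = 0.755 and 0.250), and the value of Cxcl3 was below 0. Neither did Cxcl15, whose log2 fold change was −2.25 ± 0.78 in OA against Cont (edgeR adjusted p = 0.116) and 2.15 ± 0.78 in ZnPP+OA against OA (adjusted p = 0.159), nor Tnf (adjusted p = 0.431 and 0.107). Csf3, the ligand of the Csf3r product, had 146 counts in OA 2, 8 in OA 3 and none in the other 7 livers.

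Of 9 tested adhesion genes, Vcam1 and Cd44 were called in both comparisons. Vcam1, which encodes an endothelial ligand of leukocyte integrins, rose by 2.79 ± 0.40 on the log2 scale in OA against Cont (edgeR adjusted p = 0.00257), and Cd44, which encodes a hyaluronan receptor, rose 4.30-fold (adjusted p = 0.00261). Both fell in ZnPP+OA against OA, by 2.00 ± 0.39 and 1.72 ± 0.30 (adjusted p = 0.0184 and 0.0131). Icam1, which encodes a ligand that neutrophils bind, had a log2 fold change of 1.11 ± 0.33 in OA against Cont and did not pass (adjusted p = 0.0738). The leukocyte integrin genes Itgb2 (1.59 ± 0.52, adjusted p = 0.0991) and Itgal (0.95 ± 0.38, adjusted p = 0.162) did not pass there, nor in ZnPP+OA against OA (adjusted p = 0.208 and 0.0790, edgeR).

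The inhibitors of neutrophil proteases split by gene. Slpi rose in OA against Cont by 2.86 ± 0.56 on the log2 scale (edgeR adjusted p = 0.0131) and fell in ZnPP+OA against OA by 3.01 ± 0.57 (adjusted p = 0.0167). Serpina1e, Serpina1d and Serpina1c, alpha-1 antitrypsin genes of mouse hepatocytes, were lower in OA against Cont, by log2 fold changes of −4.31 ± 0.53, −3.90 ± 0.62 and −2.46 ± 0.55 (adjusted p = 0.00110, 0.00428 and 0.0221). Their paralogs Serpina1a and Serpina1b were not called there (−1.38 ± 0.49 and −1.61 ± 0.54, edgeR adjusted p = 0.124 and 0.103). Serpina1e and Serpina1d were called higher in ZnPP+OA against OA (3.26 ± 0.50 and 2.47 ± 0.58, adjusted p = 0.00734 and 0.0399). The Serpina1 genes are near-identical copies, and how reads were divided among them is not given. Of the list of 14, which also holds receptors of calprotectin, Tlr4 had a log2 fold change of 2.63 ± 1.28 in OA against Cont (adjusted p = 0.250), and Timp1, an inhibitor of metalloproteinases, 1.73 ± 0.60 there (adjusted p = 0.118) and −2.29 ± 0.62 in ZnPP+OA against OA (adjusted p = 0.0693).

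Relatives of the 8 genes in their own families were counted as well. Of 26 tested, 7 were called higher in OA against Cont and none lower, among them S100a11 and S100a10, which belong to the S100 family, by 2.30 ± 0.42 and 1.86 ± 0.38 on the log2 scale (edgeR adjusted p = 0.00880 and 0.0164). Ly6d, of the Ly6 family, rose by 3.56 ± 0.53 (adjusted p = 0.00303), and it is known from B cell precursors and epithelia and not from neutrophils. Mmp14, a membrane metalloproteinase, rose by 1.40 ± 0.30 (adjusted p = 0.0184). Ly6c1, a close relative of Ly6g on endothelium and lymphocytes, had a log2 fold change of −0.68 ± 0.74 (adjusted p = 0.648). Lower in ZnPP+OA than in OA were 4 of the 26, Ly6d, S100a11, S100a10 and Csf2rb.

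**Figure D5:**
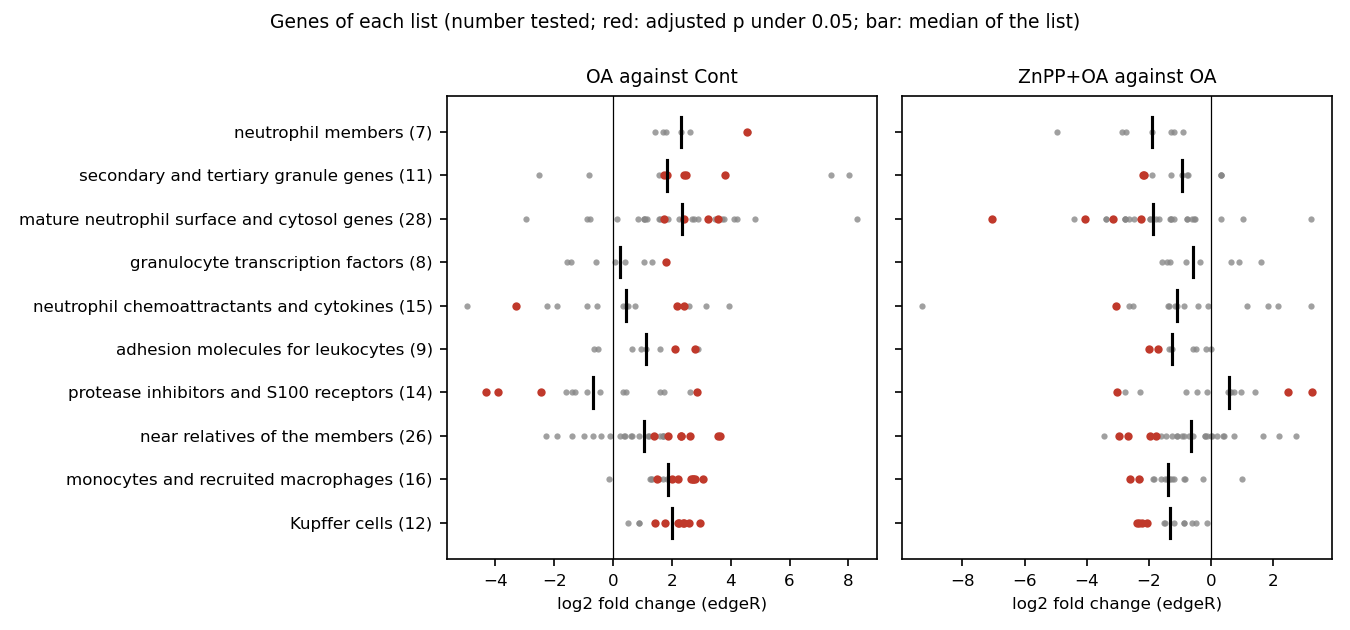
log2 fold changes (x axis, edgeR) of the tested genes of 10 lists (y axis, number tested in parentheses) in OA over Cont (left) and ZnPP+OA over OA (right); red points have an adjusted p under 0.05 and black bars are the list medians. The 8 Kupffer genes called in OA against Cont lie to the right of 0, as do the 8 monocyte and macrophage genes.

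Markers of other myeloid cells moved in the same livers. Of 12 tested Kupffer cell genes, 8 were called higher in OA against Cont (median 1.99), and of 16 genes of monocytes and recruited macrophages also 8 (median 1.86), with none lower in either list. The summed level of the Kupffer list was 194 to 406 CPM in Cont, 863 to 1209 CPM in OA and 306 to 456 CPM in ZnPP+OA, and that of the monocyte and macrophage list 74.0 to 167 CPM, 350.3 to 623 CPM and 184 to 258 CPM. Of these lists 4 and 2 genes were called lower in ZnPP+OA against OA. Both sums were higher in every OA liver than in any other liver, as the summed neutrophil level was, and the part of macrophages and monocytes in the values of genes that they also express was not tested. Of the list of eosinophils, basophils and mast cells, 3 of the 9 genes in the table had no count in any liver, among them Prg2, and the sum was 0.0547 to 1.56 CPM over the 9 livers. Of 6 tested erythrocyte genes 1 was called lower in OA against Cont, and their sum was 239 to 896 CPM in Cont, 157 to 241 CPM in OA and 177 to 182 CPM in ZnPP+OA, with the highest value in a Cont liver.

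The other cell types gave fewer calls in OA against Cont. Of 13 tested lymphocyte genes 1 was called lower (median −2.69) and the list summed to 5.93 to 23.2 CPM in Cont, 2.53 to 4.41 CPM in OA and 6.81 to 9.67 CPM in ZnPP+OA. Of 7 platelet genes 1 was called lower (median 0.23), of 12 hepatocyte genes 2 were (median −0.92) and of 8 genes of the sinusoidal endothelium 1 was (median 0.38). Of 6 genes of haematopoietic progenitors (median −1.08), 9 of stellate cells (median 0.58) and 8 of cholangiocytes (median 0.47) none was called by edgeR. In ZnPP+OA against Cont no gene of any list was called by edgeR.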

How the data were processed

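Whole-liver RNA of 9 mice was sequenced, and the deposited table gave, for each gene and library, a count of reads and an FPKM value. Tools listed in the submitters' processing notes are HISAT2 2.2.1 and StringTie 2.1.6, cutadapt 1.9 and, with no version, edgeR and DESeq2; the build is mm10. The tool that made the counts and its use of strand are not given in the sources used here. FPKM values were made by the authors by scaling fragments to gene length and library depth, and were used for levels between genes and for alternative fits. The gene coordinates in the table were not used, since 2.27% of 34019 IDs had the same start and end in GENCODE M21.

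Counts were fitted with the quasi-likelihood test of edgeR 4.0.16 (R 4.3.3) on all 9 libraries with group as the only term, after TMM scaling and filterByExpr (minimum count 10, minimum total count 15), which left 18895 genes. P-values were adjusted over all of them by Benjamini-Hochberg, with a threshold of 0.05. Exact two-sided permutation tests used log2(CPM + 0.1), and tests of ratios used counts with 0.5 added. Alternatives used DESeq2 1.42.0 and limma 3.58.1, other scalings and filters, FPKM, a replicate block and libraries left out. Other steps used numpy 2.4.6, pandas 2.3.3 and scipy 1.17.1. The fits were tested on simulated data.

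The genes named were the 8 members, up to 4 genes of each neutrophil-related list with the smallest p in either of the 2 comparisons with OA, and the 10 coding genes averaging 1 CPM or more whose log2 CPM correlated best with the mean of the 7 tested members. Other list genes were named after their values were seen. The members and lists were chosen with earlier results of these data known.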

Additional observations from a re-analysis of the deposited data

How the results depend on the processing

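With all 9 livers and TMM scaling, 1 of the 7 tested neutrophil genes was called in OA against Cont and 0 in ZnPP+OA against OA. These counts were 6 and 7 on library totals alone, 5 and 2 with no filter, 3 and 2 with DESeq2, 0 and 2 with voom and library weights, and 0 and 2 with only the 6 compared livers. With limma on log2(FPKM + 1) and on log2(FPKM + 0.1) they were 5 and 5, of the 5 members that the FPKM filter left to test. With no FPKM filter, limma on log2(FPKM + 1) gave 6 and 7. Of all genes, log2(FPKM + 0.1) called 6394 of 10696 higher in OA against Cont and 6864 lower in ZnPP+OA against OA. On log2(FPKM + 1) with no filter, these were 6357 and 7629 of 32307 genes. Voom called 573 of 18895 genes higher in OA, and the fit of the 6 compared livers 221 of 17935. With at least 10 counts asked of every library, 3 members were left to test and 0 were called. Of all 11548 genes tested there, 519 were called higher in OA and 321 lower in ZnPP+OA. With 1 liver left out, the member counts ran from 0 to 2 and from 0 to 1. Over all genes, calls then ran from 100 to 656 higher in OA and from 6 to 547 lower in ZnPP+OA. In ZnPP+OA against Cont the count was 0 throughout. Among the 28 mature neutrophil genes, 4 and 4 were called, against 23 and 23 on library totals alone, 16 and 12 with no filter and 10 and 8 with DESeq2. Among the 11 later granule genes, 5 and 2 were called, against 9 and 7 on totals alone and 5 and 4 with DESeq2. For monocytes and macrophages the counts were 8 and 2, and with DESeq2 10 and 6, and on totals alone 14 and 14. For Kupffer cells 8 and 4 were called, and on totals alone 12 and 11. All these counts are to be read against the shares of all genes called higher in OA and lower in ZnPP+OA. The shares were 2.4% and 1.26% with TMM, and 15.0% and 33.4% on totals alone. With no filter they were 3.21% and 2.36%, and with DESeq2 4.36% and 3.32%.

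Directions turned in 8 of 459 values. In ZnPP+OA against OA, S100a9 was at 0.032 without OA 2, and without any 1 liver it ran from −1.26 to 0.032. In ZnPP+OA against Cont, S100a8 was at −0.055 without ZnPP+OA 3 (−0.055 to 1.72 over the livers left out), Csf3r at −0.043 without ZnPP+OA 1 (−0.043 to 1.22) and −0.27 without Cont 1 and Cont 2, Mmp8 at 0.70 without those 2, and Mmp9 at 0.027 with voom, 1.21 without Cont 3 (−1.49 to 1.21) and 0.12 without ZnPP+OA 2. The cause was not tested.

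The labels do not say that replicate numbers mark more than the mice. Over all tested genes, same-numbered livers did not deviate together (r of −0.101 to 0.014). Such a correlation cannot exclude a shared litter, cage or batch that moves few genes. With the replicate block the calls over all genes were 578 in OA against Cont and 287 in ZnPP+OA against OA, instead of 984 and 542, and Retnlg had an adjusted p of 0.0385 in the edgeR fit with the block. The Adgre1 ratios other than that of S100a9, the TATA box letters and the fit without nuclear copies of mitochondrial genes were chosen after seeing the data. Outside the OA group, Ly6g, Cxcr2, Mmp8 and Mmp9 had at most 51 counts in a library, which limits what can be said of them.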
